A study of Mus musculus with 6 samples.

Results

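Mitochondrial ribosomal proteins are the protein subunits of the mitoribosome, the ribosome that translates the few messenger RNAs of the mitochondrial genome. They were taken here as every gene of the deposited table whose symbol starts with Mrpl or Mrps followed by a number, which gave 78 of 11866 genes, 49 with Mrpl and 29 with Mrps symbols. The cells were HCC3-4, a line grown from a liver tumour of MYC transgenic mice, and their RNA was captured by its poly(A) tail and sequenced. The KD group is 3 libraries of cells stably transfected with a short hairpin RNA against Sf3b3, a subunit of the splicing factor SF3b, and its control, PLKO, is 3 libraries of cells with the pLKO.1-TRC vector. Both groups share the line and its MYC background. The labels name a single hairpin construct and no rescue, and do not tell whether each library had its own culture. The p-values here therefore speak only to the spread among these 6 libraries, and that spread may be technical. By its title the series concerns splicing of FXR, a bile acid receptor, through SF3B3 in MYC-driven hepatocarcinogenesis, and setting KD against PLKO shows which transcript levels differ after knockdown.

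All mitoribosomal proteins are encoded in the nucleus, made in the cytosol and imported, whereas the ribosomal RNAs on which they assemble are made inside the organelle. The large subunit joins amino acids and the small subunit reads the messenger RNA, and the product is a handful of core subunits of the respiratory chain and ATP synthase. Many mitoribosomal proteins descend from bacterial ribosomal proteins, and the others were acquired by mitochondria later. Fast-growing tumour cells, those with high MYC among them, are known to need mitochondrial translation.

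Reads on the listed genes, recovered from the deposited values, came to between 15140441 and 17566101 in the KD libraries and between 16179939 and 17463788 in the PLKO libraries, and reads on the 78 mitoribosomal genes to between 45029 and 51060 in KD and between 51514 and 69829 in PLKO. Sf3b3 had 10.3, 9.56 and 13.9 FPKM (fragments scaled by gene length and sequencing depth) in KD 1, 2 and 3, against 22.6, 28.7 and 29.2 FPKM in PLKO 1, 2 and 3, and was called lower (log2 fold change -1.26, SE 0.23, limma adjusted p = 0.037). The libraries numbered 3 stood apart from the others: over all tested genes, the deviations of KD 3 and PLKO 3 from their group means correlated at 0.50. None of 10 hepatocyte markers (such as Alb, Ttr and Hnf4a) and none of 4 endothelial markers was among the listed genes, so the hepatocyte identity of the line could not be seen in this table. Of 5 cholangiocyte markers Krt19, Sox9 and Spp1 were listed, and of 6 leukocyte markers Cd74 and Cd79a, with summed levels of 134 to 253 and 5.93 to 7.36 FPKM in KD and of 109 to 237 and 2.67 to 10.7 FPKM in PLKO. Cd79a, a B cell gene, was the sole one of these called (higher in KD, limma adjusted p = 0.047), and Cd74 had a log2 fold change of -1.10 and was called lower with the replicate number as a block (limma adjusted p = 0.29 without it and 0.031 with it), whereas Ptprc, carried by leukocytes in general, was not listed. Of 7 fibroblast or stellate markers Col1a1, Col1a2, Col3a1 and Pdgfrb were listed, and their summed level ranged from 39.8 to 66.5 FPKM in KD and from 94.6 to 144 FPKM in PLKO. None of the 3 tested was called (limma adjusted p from 0.051 to 0.14), and Col3a1 and Pdgfrb were lower with the replicate number as a block. The part of that shift in the results that follow was not tested.

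Mitoribosomal transcripts were mostly a little lower in the knockdown cells, few by enough to pass the test, and a handful were higher. The median log2 fold change (KD minus PLKO) of the 78 genes was -0.25, against -0.04 over all 10770 tested genes (those with a mean of at least 1 FPKM). It was below 0 for 61 of the 78 genes, or 78.2%, against 52.3% of all tested genes. All 78 had a mean level of at least 1 FPKM and were tested. Of these, 2 changed (limma adjusted p under 0.05 over all tested genes): Mrps24 and Mrpl49 fell, which is 2.56% of the members, beside 1.79% of all tested genes called lower and 2.92% called in either direction. No member was called higher, where 1.12% of all tested genes were. At an unadjusted p under 0.05 by limma, 21 members were lower and 2 higher. That is 23 of 78 members, beside 2977 of all 10770 tested genes in either direction. With limma-voom on the recovered reads, 0 members were called higher as well. With the replicate number as a block in the fit, 10 members were called lower (12.8%) and 2 higher (2.56%), beside 11.1% and 8.19% of all tested genes (19.3% in either direction). The share called lower thus stood near that of all genes in both fits. In cells measured in bulk, fewer cells of a type and less RNA per cell cannot be told apart.

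**Figure D1:**
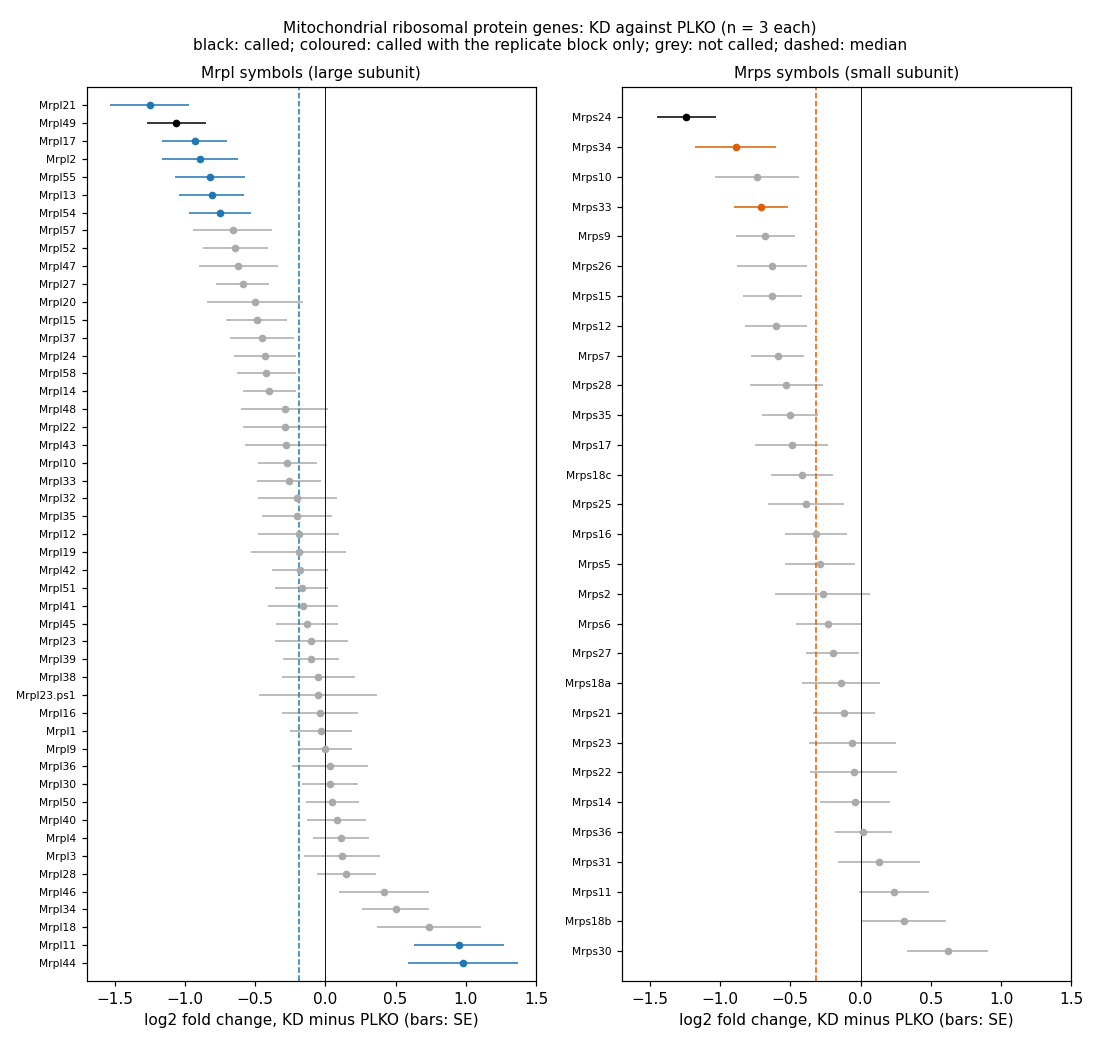
Log2 fold change, KD minus PLKO, of each of the 78 mitoribosomal genes, with its standard error, for the 49 Mrpl genes (left) and the 29 Mrps genes (right). Black points were called (Mrpl49 and Mrps24), coloured points only with the replicate block, grey points were not called, and dashed lines mark the medians, -0.19 for Mrpl and -0.32 for Mrps genes.

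Mrps24, the small-subunit homolog of a bacterial protein at the entry of the messenger RNA channel, had 12.8, 16.4 and 16.2 FPKM in KD 1, 2 and 3, against 31.2, 40.3 and 35.5 FPKM in PLKO 1, 2 and 3. Every KD library lay below every PLKO library, by a wide gap, with means of 15.1 ± 2 FPKM in KD and 35.7 ± 4.56 FPKM in PLKO (SD, n = 3 each). It fell by 1.24 on the log2 scale (SE 0.21, 95% confidence interval -1.71 to -0.77, limma adjusted p = 0.032), and the values rest on 289, 379 and 414 reads in KD and on 827, 987 and 822 reads in PLKO. The gene spans bases 5703983 to 5715680 of chromosome 11, minus strand (GRCm38, GENCODE M21), in a span it shares on the same strand with Urgcp, and the RefSeq start used for its promoter lies inside this span. Urgcp had a log2 fold change of 0.64 (limma adjusted p = 0.18), and reads from the shared span could be counted for either gene.

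Mrpl49, a large-subunit protein with no bacterial counterpart, had 12.4, 14.7 and 17.2 FPKM in KD, against 28.4, 35.4 and 28.4 FPKM in PLKO. The groups did not overlap, with means of 14.8 ± 2.43 FPKM in KD and 30.7 ± 4.04 FPKM in PLKO (SD, n = 3 each). It fell by 1.06 (SE 0.21, interval -1.55 to -0.58, limma adjusted p = 0.044), on 328 to 519 reads per KD library and 773 to 1017 per PLKO library. Its span on chromosome 19 is 6053622 to 6057785, minus strand, and overlaps Syvn1 on the other strand. Its start lies 59 bases from that of Fau, which encodes a cytosolic ribosomal protein on the other strand and had a log2 fold change of 0.23 (limma adjusted p = 0.59). Both calls were lost when KD 1, KD 2, PLKO 1 or PLKO 2 was left out (adjusted p from 0.12 to 0.19 for Mrps24 and from 0.13 to 0.19 for Mrpl49), and limma called no gene at all in those 4 fits (1793 to 2315 genes at an unadjusted p under 0.05).

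Mrpl21, the large-subunit homolog of a bacterial protein, had the lowest fold change of all members and just missed the threshold. Its levels were 8.10, 9.07 and 13.3 FPKM in KD, against 18.8, 33.0 and 21.4 FPKM in PLKO, again without overlap, and its log2 fold change was -1.25 (SE 0.28, limma adjusted p = 0.051, and 0.0071 with the replicate block). It lies on chromosome 19 from 3282901 to 3292837, and its start is 116 bases from that of Ighmbp2 on the other strand (log2 fold change -0.57, limma adjusted p = 0.31).

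The promoter windows of the genes at both ends of the fold changes are shown because these 5 genes (Mrps24 and Mrpl49, Mrpl21, and Mrpl11 and Mrpl44, the members with the highest fold changes) carry the widest contrasts. Each window runs 250 bases before to 50 after a RefSeq start (build GRCm38.p6), written 5′ to 3′ on the strand of the gene. Capitals mark letters that match a motif of NRF1, ETS factors (the family of GABPA) or YY1, which are known regulators of nuclear genes for mitochondria, or the E-box bound by MYC.
Mrps24, chr11:5707652-5707951, strand -: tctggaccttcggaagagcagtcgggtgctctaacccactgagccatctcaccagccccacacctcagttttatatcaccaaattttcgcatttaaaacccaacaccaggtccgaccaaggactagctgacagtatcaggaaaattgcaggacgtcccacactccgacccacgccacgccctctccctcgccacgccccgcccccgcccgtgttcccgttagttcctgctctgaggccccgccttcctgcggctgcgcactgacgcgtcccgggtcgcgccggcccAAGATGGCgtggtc
Mrpl49, chr19:6057706-6058005, strand -: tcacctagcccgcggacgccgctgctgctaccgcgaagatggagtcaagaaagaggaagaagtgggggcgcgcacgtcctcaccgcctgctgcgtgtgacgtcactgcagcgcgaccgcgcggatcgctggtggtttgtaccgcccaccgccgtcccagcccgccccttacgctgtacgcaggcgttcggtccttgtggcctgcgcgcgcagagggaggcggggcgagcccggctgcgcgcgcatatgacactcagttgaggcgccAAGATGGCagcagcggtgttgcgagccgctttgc
Mrpl21, chr19:3282792-3283091, strand +: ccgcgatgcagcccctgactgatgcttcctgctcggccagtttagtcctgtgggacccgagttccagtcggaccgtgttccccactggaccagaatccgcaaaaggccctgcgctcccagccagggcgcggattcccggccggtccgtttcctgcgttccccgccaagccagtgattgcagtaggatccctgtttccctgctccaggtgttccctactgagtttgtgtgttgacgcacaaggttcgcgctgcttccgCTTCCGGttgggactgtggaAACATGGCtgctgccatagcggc
Mrpl11, chr19:4962056-4962355, strand +: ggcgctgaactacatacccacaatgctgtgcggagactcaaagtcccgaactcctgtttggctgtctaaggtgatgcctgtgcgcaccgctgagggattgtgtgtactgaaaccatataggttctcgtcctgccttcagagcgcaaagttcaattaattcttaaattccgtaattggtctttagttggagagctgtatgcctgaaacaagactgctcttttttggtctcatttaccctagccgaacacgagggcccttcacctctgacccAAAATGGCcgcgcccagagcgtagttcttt
Mrpl44, chr1:79775768-79776067, strand +: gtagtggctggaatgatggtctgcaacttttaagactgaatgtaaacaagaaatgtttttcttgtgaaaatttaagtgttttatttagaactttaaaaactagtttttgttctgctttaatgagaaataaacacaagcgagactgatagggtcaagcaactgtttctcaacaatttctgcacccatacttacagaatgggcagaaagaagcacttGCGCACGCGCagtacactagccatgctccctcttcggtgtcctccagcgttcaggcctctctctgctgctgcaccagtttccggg
Counted from 1 at the start, the capitals are a YY1 match at 37 in Mrps24 and at 17 in Mrpl49, an ETS match at 8 and a YY1 match at 28 in Mrpl21, a YY1 match at 21 in Mrpl11 and an NRF1 match at -35 in Mrpl44. The YY1 letters thus stood just after the start in Mrps24 and Mrpl49, which fell, and in Mrpl21, which was called lower only with the block. They also stood there in Mrpl11, which was higher with the block.

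Windows were found for 68 of the 78 genes, and both strands were searched. The YY1 letters AANATGGC were in 21 of 68 (30.9%), against 10.9% of the tested genes with a window and 6.96% of all genes with a window. The ETS letters CCGGAAG were in 25 (36.8%), against 22% and 9.93%. The NRF1 motif was in 13 (19.1%), against 12.7% and 5.19%, and the E-box CACGTG in 5 (7.35%), against 12.2% and 8.09%. At 48 of the 68, at least 1 of the 4 motifs was present. Median log2 fold changes were -0.20 with and -0.23 without the YY1 letters, -0.29 and -0.19 for ETS, -0.19 and -0.26 for NRF1, and -0.45 and -0.20 for the E-box, the last on 5 genes. These are matches of letters and were not tested. No window was matched for Mrpl4, Mrpl13, Mrpl15, Mrpl19, Mrpl38, Mrpl54, Mrps28, Mrps34, Mrps35 and Mrpl23.ps1.

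A further 6 large-subunit genes besides Mrpl49 were called lower only with the replicate block, Mrpl21 among them. Mrpl17, a homolog of a bacterial protein, had 6.91, 8.60 and 9.65 FPKM in KD, against 14.1, 19.2 and 14.7 FPKM in PLKO (log2 fold change -0.93, SE 0.23, limma adjusted p = 0.059, and 0.015 with the block). Mrpl2, which binds the ribosomal RNA near the site of peptide bond formation, had 38.0, 51.6 and 38.6 FPKM in KD, against 72.0, 112 and 60.2 FPKM in PLKO (-0.89, SE 0.27, adjusted p = 0.081 by limma and 0.016 with the block). Neither gene had overlapping groups, and PLKO 2 was the highest library in both. Mrpl13, another bacterial homolog, had 6.54, 7.05 and 6.23 FPKM in KD, against 9.82, 15.0 and 10.6 FPKM in PLKO. Mrpl55, a bacterial homolog as well, had 7.04, 7.92 and 5.72 FPKM in KD, against 9.58, 15.4 and 11.8 FPKM in PLKO. Mrpl54, which has no bacterial counterpart, had 20.4, 26.4 and 19.5 FPKM in KD, against 32.5, 44.5 and 34.7 FPKM in PLKO. None of these 3 genes had overlapping groups. Their log2 fold changes were -0.81 for Mrpl13, -0.82 for Mrpl55 and -0.75 for Mrpl54, with adjusted p by limma from 0.073 to 0.085, or from 0.025 to 0.028 once the block was in the fit.

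In the small subunit, Mrps34 and Mrps33 were called lower only with the block. Mrps34, a mitochondria-specific protein needed for a stable small subunit, had 6.70, 6.42 and 3.87 FPKM in KD, against 10.4, 12.6 and 7.98 FPKM in PLKO (log2 fold change -0.89, SE 0.29, limma adjusted p = 0.094, and 0.018 with the block). Its span is shared with Nme3 on the same strand and with Mapk8ip3 on the other. Mrps33, also mitochondria-specific, had 10.2, 11.3 and 10.8 FPKM in KD, against 16.0, 18.7 and 18.0 FPKM in PLKO (-0.71, SE 0.19, limma adjusted p = 0.066, and 0.035 with the block). Both groups of Mrps33 were tight and far apart. Mrps10, a bacterial homolog with the third lowest fold change among the Mrps symbols, had 3.16, 3.05 and 2.59 FPKM in KD, against 4.46, 7.17 and 3.60 FPKM in PLKO, a log2 fold change of -0.74 that was not called (limma adjusted p = 0.16, and 0.067 with the block).

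**Figure D2:**
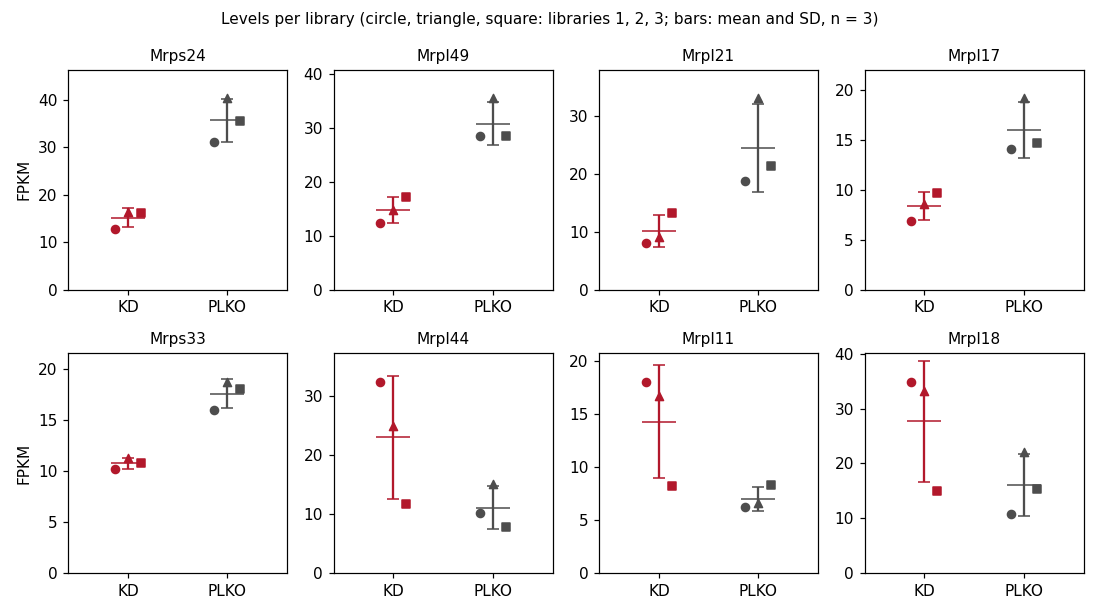
FPKM of 8 mitoribosomal genes in each library, KD left of PLKO, with circles, triangles and squares for libraries 1, 2 and 3 and bars for the mean and SD of 3 libraries. Mrps24, Mrpl49, Mrpl21, Mrpl17 and Mrps33 show no overlap between the groups, and in Mrpl44, Mrpl11 and Mrpl18 the KD 3 square falls among the PLKO points.

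The members with the largest fold changes upward had overlapping groups. Mrpl44, a mitochondria-specific protein with a ribonuclease-like fold, had 32.4, 25 and 11.8 FPKM in KD, against 10.3, 15.1 and 7.91 FPKM in PLKO. KD 1 and KD 2 lay above all PLKO libraries and KD 3 between them. Its log2 fold change was 0.98 (SE 0.39), with a limma adjusted p of 0.15 without the block and 0.019 with it. Mrpl11, the homolog of a bacterial protein at the base of the stalk that binds translation factors, had 18.0, 16.7 and 8.19 FPKM in KD, against 6.21, 6.58 and 8.30 FPKM in PLKO (0.95, SE 0.32, limma adjusted p = 0.10, and 0.037 with the block). KD 3 equalled PLKO 3 to within 0.02 on the log2 scale, whereas KD 1 and KD 2 stood 1.53 and 1.35 above the PLKO library of the same number. These were the 2 members called higher with the block. Without both libraries numbered 3, limma called 5 members higher, beside 11.9% of all tested genes (27.9% in either direction). They were Mrpl44 and Mrpl11 (log2 fold changes 1.19 and 1.44, limma adjusted p = 0.013 and 0.0044) and 3 others. Those were Mrpl18 (1.13, limma adjusted p = 0.03), Mrpl46 (0.86, 0.025) and Mrps30 (0.99, 0.022). That fit leaves out KD 3, the lowest KD library in each of the 5, so it gives no separate support.

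Mrpl18, a homolog of a bacterial protein that binds ribosomal RNA, had 34.8, 33.2 and 15.0 FPKM in KD, against 10.9, 22.1 and 15.4 FPKM in PLKO (log2 fold change 0.74, limma adjusted p = 0.23). Mrpl34, a short bacterial homolog, had 70.4, 71.0 and 45.5 FPKM in KD, against 37.8, 50.7 and 41.8 FPKM in PLKO (0.50, limma adjusted p = 0.21), and Mrpl46, which is mitochondria-specific, had 31.9, 25.1 and 12.7 FPKM in KD, against 16.5, 14.7 and 17.5 FPKM in PLKO (0.42, limma adjusted p = 0.42). In each, KD 3 fell within or below the range of the PLKO libraries. Mrps11, whose start lies 412 bases from that of Mrpl46 on the other strand and whose span overlaps it, had 14.7, 12.8 and 8.87 FPKM in KD, against 8.29, 10.7 and 11.5 FPKM in PLKO (0.24, limma adjusted p = 0.57). Mrps18b had 12.0, 9.70 and 6.17 FPKM in KD, against 7.35, 8.90 and 5.74 FPKM in PLKO (0.31, limma adjusted p = 0.52). With all 6 libraries, none of these 5 genes was called, with the block included.

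Symbols do not always tell where a protein sits. Mrps30 and Mrps18a are parts of the large subunit in the mammalian mitoribosome, Mrps36 is a subunit of the 2-oxoglutarate dehydrogenase complex, and Mrpl58 is a large-subunit protein that also frees stalled peptides. Mrps30 had the highest fold change among the Mrps genes. Its levels were 7.88, 6.94 and 4.86 FPKM in KD, against 4.44, 3.11 and 5.26 FPKM in PLKO, a log2 fold change of 0.62 (interval -0.03 to 1.28, limma adjusted p = 0.20). Mrps18a had 14.7, 13 and 8.66 FPKM in KD, against 12.5, 17.1 and 10.4 FPKM in PLKO (-0.14, interval -0.77 to 0.49, limma adjusted p = 0.77). Mrps36 had 20.9, 23.8 and 17.2 FPKM in KD, against 19.6, 21.3 and 19.6 FPKM in PLKO (0.02, interval -0.44 to 0.48, limma adjusted p = 0.95). Mrpl58 had 4.91, 5.51 and 4.93 FPKM in KD, against 7.51, 6.01 and 7.05 FPKM in PLKO, without overlap but not called (-0.42, limma adjusted p = 0.23).

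Between the subunits, the small one was lower by somewhat more. For the 49 Mrpl genes the median log2 fold change was -0.19, with 37 below 0 (75.5%), 1 called lower and none higher. For the 29 Mrps genes it was -0.32, with 24 below 0 (82.8%), 1 called lower and none higher. With the block, 7 Mrpl genes were called lower and 2 higher, and 3 Mrps genes lower and none higher, beside 11.1% of all tested genes lower and 8.19% higher, so neither subunit is set apart by these counts. The difference of the medians, large minus small, was 0.13 on the log2 scale. It was not tested, since genes are not replicates of a condition. The middle 50% of the genes ran from -0.49 to -0.00 for Mrpl and from -0.60 to -0.06 for Mrps genes, so the spread within each subunit was wider than the difference between them. Sorted by place (Mrps30 and Mrps18a in the large subunit, Mrps36 left out, and the mitoribosomal proteins with other symbols added), the medians were -0.19 for 51 large-subunit genes and -0.41 for 30 small-subunit genes, of which 38 and 27 were below 0, and the difference was 0.22.

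By origin, the medians lay close together and their order was not stable. The median log2 fold change was -0.28 over the 46 genes with a bacterial homolog and -0.20 over the 35 mitochondria-specific genes. Within the large subunit the medians were -0.20 for 30 homologs and -0.17 for 21 mitochondria-specific genes, and within the small subunit -0.46 for 16 and -0.38 for 14. Without PLKO 2 the order turned, with -0.15 for homologs and -0.21 for mitochondria-specific genes over both subunits, -0.02 and -0.13 in the large and -0.31 and -0.40 in the small subunit. Without KD 3 it turned within each subunit, with -0.06 and -0.10 in the large and -0.34 and -0.37 in the small one. Of the mitoribosomal proteins with other symbols, Aurkaip1 of the small subunit had 26.9, 32.2 and 25.7 FPKM in KD, against 50.6, 66.0 and 46.4 FPKM in PLKO (-0.93, SE 0.21, limma adjusted p = 0.052, and 0.012 with the block). Its groups were far apart. For Ptcd3, Gadd45gip1, Dap3 and Chchd1 the log2 fold changes were -0.60, -0.37, -0.36 and -0.08, and none was called (adjusted p by limma between 0.098 and 0.83).

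The groups did not overlap for 30 of the 78 genes, and in all 30 the KD libraries were below the PLKO libraries. That is 38.5% of the members, beside 18.8% of all tested genes with KD below PLKO and 13.4% with KD above. Separation of 3 against 3 values gives an exact two-sided permutation p of 0.1 for each gene, the smallest that this design allows. Of the 30 genes, 16 were Mrpl (32.7% of 49) and 14 Mrps (48.3% of 29). At least 1.5-fold lower were 20 members (25.6%, beside 18.6% of all tested genes), and 4 were at least 1.5-fold higher (5.13%, beside 13.8%).

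Single libraries moved with this pattern. Of the 78 genes, 39 had their lowest value in KD 3 and 46 their highest in PLKO 2. The median deviation of the members' log2 FPKM from their own means was -0.05, 0.02 and -0.34 in KD 1, 2 and 3, against 0.07, 0.39 and 0.02 in PLKO 1, 2 and 3. Thus KD 2 and PLKO 3 stood at the same median. Over all tested genes these medians lay between -0.04 and 0.06. Without KD 3 the median log2 fold change of the members was -0.11 with 50 below 0, and without PLKO 2 it was -0.13 with 49 below 0, against values from -0.33 to -0.29 with 60 to 64 below 0 when any of the other 4 libraries was left out. Without KD 3, 4 members were called higher and 6 lower, beside 6.81% and 9.39% of all tested genes (16.2% in either direction). Without PLKO 3, none was called higher and 4 lower, beside 3.28% and 4.16% (7.44% in either direction). At an unadjusted p under 0.05 by limma, that fit had 2 members higher and 22 lower, beside 3103 of all 10770 tested genes in either direction. Large minus small, the median deviations differed by 0.07, 0.06 and 0.10 in KD 1, 2 and 3, against -0.03, -0.14 and -0.06 in PLKO 1, 2 and 3, so that every KD library lay above every PLKO library. The difference of the median log2 fold changes, 0.13 with all libraries, was 0.06 without KD 1 and between 0.10 and 0.15 when any other single library was left out.

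**Figure D3:**
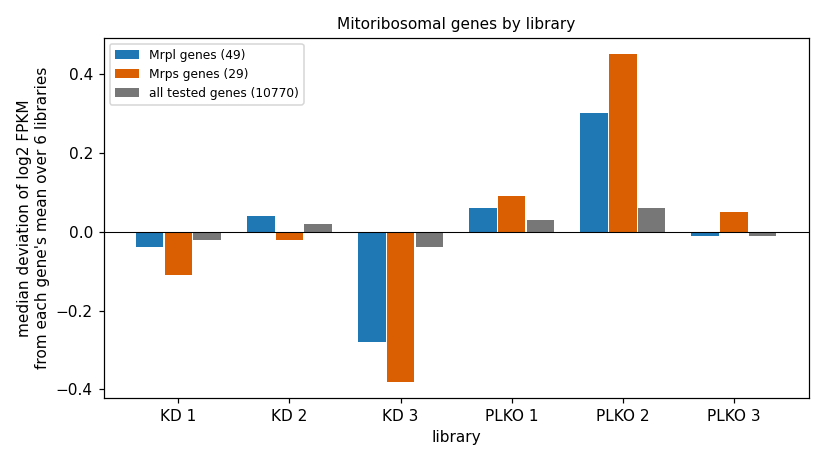
Median deviation of log2 FPKM from the mean of each gene over the 6 libraries, for the 49 Mrpl genes, the 29 Mrps genes and all 10770 tested genes, with KD libraries left of PLKO libraries. KD 3 (-0.28 for Mrpl and -0.38 for Mrps genes) and PLKO 2 (0.30 and 0.45) stand apart from the other 4 libraries.

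Levels, as FPKM and so scaled by gene length, differed widely between members. Mrps21, a bacterial homolog of the small subunit, was the highest, with 65.9, 85.0 and 73.1 FPKM in KD, against 64.7, 84.0 and 97.3 FPKM in PLKO (log2 fold change -0.12, limma adjusted p = 0.74). Mrpl2 came next with a mean over all libraries of 62.0 FPKM, then Mrpl14 with 58.9 and Mrpl34 with 52.9 FPKM. The order differed between the groups: the highest means after Mrps21 were those of Mrpl34 (62.3 FPKM), Mrpl14 (51.1), Mrpl28 (50.5) and Mrpl2 (42.7) in KD, and those of Mrpl2 (81.3 FPKM), Mrpl14 (66.8), Mrpl52 (51.6) and Mrps7 (46.5) in PLKO. Mrpl14 had 43.5, 58.1 and 51.8 FPKM in KD, against 68.8, 65.8 and 65.7 FPKM in PLKO (log2 fold change -0.40, limma adjusted p = 0.22). The values of each of these 4 genes over the 6 libraries overlapped those of the other 3, so neighbours in this order did not differ beyond their spread. At the low end were Mrpl48 with 2.01, 1.76 and 3.05 FPKM in KD, against 2.38, 2.56 and 3.21 FPKM in PLKO, Mrps25 with 2.26, 2.98 and 2.15 FPKM in KD, against 3.03, 3.47 and 3.12 FPKM in PLKO, and Mrps10. The processed pseudogene Mrpl23.ps1 had 18, 42 and 33 reads in KD, against 22, 56 and 25 reads in PLKO, and can share reads with Mrpl23, so its log2 fold change of -0.05 (interval -0.99 to 0.90) is uncertain. The median level of the Mrpl genes was 18.0, 18.2 and 13.3 FPKM in KD, against 17.2, 19.2 and 18.1 FPKM in PLKO. That of the Mrps genes was 12.0, 12.4 and 8.87 FPKM in KD, against 12.5, 16.5 and 12.1 FPKM in PLKO, below the large subunit in every library.

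**Figure D4:**
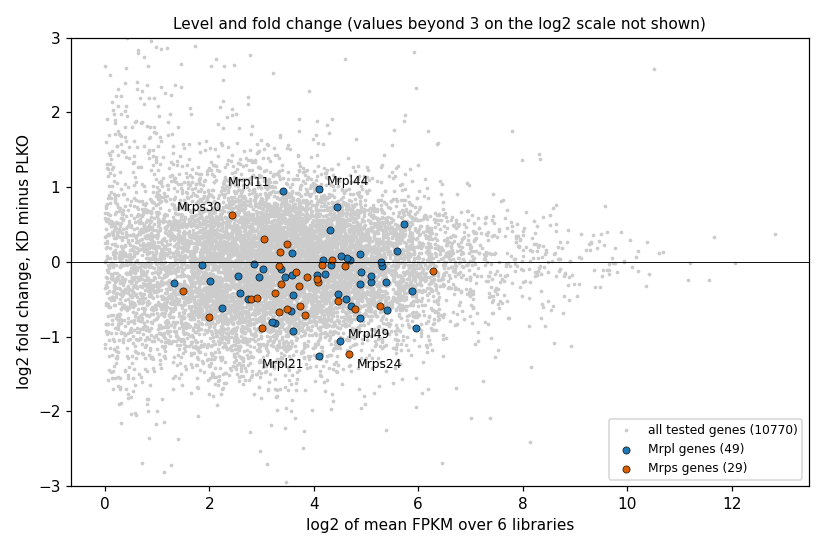
Log2 fold change, KD minus PLKO, against the log2 of the mean FPKM over 6 libraries, for the 49 Mrpl genes, the 29 Mrps genes and all tested genes. The members lie in the middle of the range of levels, with fold changes between -1.25 (Mrpl21) and 0.98 (Mrpl44).

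The fold changes of the members had at most a weak relation to level and gene structure. Over the 77 genes without the pseudogene, which share the same 6 libraries, Spearman's rho with the log2 fold change was 0.09 for the level, -0.02 for exonic length and 0.02 for the number of exons in the transcript with the most exons (Pearson's r 0.05, -0.09 and -0.02). Exonic lengths ran from 607 to 8631 bases with a median of 2533, and exon numbers from 2 to 12 with a median of 5. The genes lie on 17 chromosomes, at most 11 of them on chromosome 11.

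Many mitoribosomal genes share a start region with another gene, and the partners were about evenly split in sign. Of the 78 genes, 36 had the start of a gene on the other strand within 1000 bases of their own, and for 28 of them the partner was a tested protein-coding gene. Among the partners the median log2 fold change was -0.04, and 15 of 28 were below 0 at 2 decimals. None was called by limma, or 2 with the block, Ska3 and Eme1, beside 2.92% and 19.3% of all tested genes in either direction. In 16 of the 28 pairs both genes had the same sign at 2 decimals (Mrpl46 and Mrps11, partners of each other, enter once from each side). Zfp661, the partner of Mrps5 (-0.29), was at -0.00 and entered neither count. Mrpl44 (0.98) stands beside Wdfy1 (-0.57, limma adjusted p = 0.23), and Mrpl57 (-0.66), a mitochondria-specific protein of the large subunit, beside Ska3, a protein of the mitotic spindle attachment (0.83, limma adjusted p = 0.076, and 0.021 with the block). Mrpl27 (-0.59) stands beside Eme1, an endonuclease subunit of DNA repair (0.94, limma adjusted p = 0.17, or 0.019 with the block), and Mrpl32 (-0.20) beside Psma2, a proteasome subunit (0.71, limma adjusted p = 0.12). In all, 31 of the 78 genes overlapped the span of a gene on the opposite strand and 9 one on the same strand, and whether reads were counted by strand is not given in the sources used here. How often listed genes in general share a start region or a span was not counted.

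**Figure D5:**
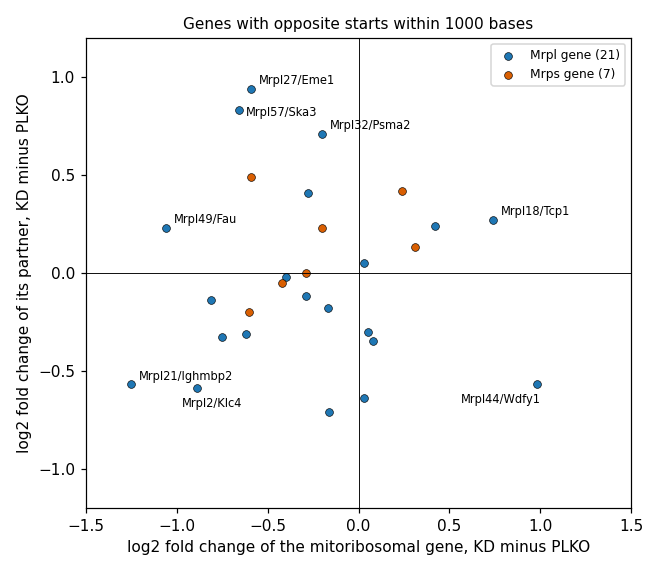
Log2 fold change, KD minus PLKO, of 28 mitoribosomal genes (horizontal axis) and of the protein-coding gene that starts within 1000 bases on the other strand (vertical axis). In 16 pairs both values have the same sign, and Mrpl49, Mrpl57 and Mrpl44 lie in quadrants of opposite sign.

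Genes that build the mitoribosome were described with the same fit. Of 26 tested assembly factors 1 was called lower and none higher (with the block 4 lower, Mrm3 among them, and none higher), beside 1.79% of all tested genes called lower and 11.1% with the block, and the median log2 fold change was -0.21. Eral1, a GTPase that binds the small ribosomal RNA during assembly, had 6.95, 6.04 and 7.31 FPKM in KD, against 13.7, 13 and 12 FPKM in PLKO. Its groups were tight and did not overlap, and it fell by 0.93 (SE 0.20, limma adjusted p = 0.048). Nsun4, which methylates the small ribosomal RNA and joins the assembly of the large subunit, had a log2 fold change of -1.14 (limma adjusted p = 0.062 without and 0.018 with the block). Tfb1m, which dimethylates the small ribosomal RNA, had one of -1.29 (limma adjusted p = 0.092, and 0.036 with the block). Ybey was listed below the level tested. Among 13 tested translation factors none was called (with the block 4 lower, the release factor Mtrf1l among them, beside the same 11.1% of all tested genes), and the median was -0.39. The initiation factor Mtif2, the elongation factor Tsfm and Gfm2, which splits the ribosome after termination, were at -0.91, -0.89 and -1.11 on the log2 scale, with adjusted p by limma from 0.057 to 0.066, or from 0.017 to 0.025 once the block was in the fit.

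Of 14 tested genes of mitochondrial transcription and RNA handling, 2 were called lower and none higher (3 lower with the block), again beside 1.79% and 11.1% of all tested genes called lower. The list as a whole was split in sign, with 7 genes below 0, 7 above and a median log2 fold change of -0.08. Tfb2m was at 0.68, with every KD library above every PLKO library, and was not called (limma adjusted p = 0.11). Pnpt1, the exoribonuclease of the mitochondrial RNA degradosome, had 6.45, 7.52 and 10.6 FPKM in KD, against 18.7, 25.5 and 15.1 FPKM in PLKO, and fell by 1.27 (SE 0.27, limma adjusted p = 0.048). Rexo2, which degrades the short RNAs left by other nucleases, had 9.30, 10.9 and 9.59 FPKM in KD, against 21.0, 29.8 and 16.6 FPKM in PLKO, and fell by 1.14 (SE 0.25, limma adjusted p = 0.049). Neither had overlapping groups. Eral1, Pnpt1 and Rexo2 lost their calls without KD 1, KD 2, PLKO 1 or PLKO 2 (limma adjusted p from 0.14 to 0.22). Over 16 alternative fits, Pnpt1 was called in 12, Rexo2 in 10 and Eral1 in 9. Lrpprc, which stabilises mitochondrial messenger RNAs, had a log2 fold change of -0.89 (adjusted p = 0.10 by limma, or 0.035 once the block was in the fit).

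The messenger RNAs that mitoribosomes translate were split in sign. Of the 13 mitochondrially encoded protein genes none was called, with the block included (0 at an unadjusted p under 0.05 by limma), with 6 below 0 and a median log2 fold change of 0.06. Their log2 fold changes ran from -0.99 to 0.48. The highest in level, mt.Co1, had 7436, 9225 and 7929 FPKM in KD, against 5956, 5787 and 7303 FPKM in PLKO, with every KD library above every PLKO library but no call (log2 fold change 0.37, limma adjusted p = 0.29). For mt.Co3 the log2 fold change was -0.69 (limma adjusted p = 0.25) and for mt.Nd1 0.33 (limma adjusted p = 0.51). The large mitochondrial ribosomal RNA, mt.Rnr2, the RNA core of the large subunit, was named after its values were seen. It had 2795, 2932 and 1677 FPKM in KD, against 332, 254 and 752 FPKM in PLKO, so that each KD library was above each PLKO library, and rose by 2.59 (SE 0.40, interval 1.68 to 3.49, limma adjusted p = 0.031, and 0.0018 with the block). Without KD 1, KD 2, PLKO 1 or PLKO 2 its adjusted p was between 0.12 and 0.19. Ribosomal RNA is counted here only as far as poly(A) capture took it up, and the part of the capture in this difference was not tested.

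Import and control genes were described in the same way. Of 19 tested genes of mitochondrial protein import and processing none was called, beside 2.92% of all tested genes in either direction. With the block 2 were lower and 1 higher, beside 11.1% and 8.19% of all tested genes. The median log2 fold change was -0.33. Pam16 and Dnajc19, parts of the import motor, were at -0.73 and -0.86 (limma adjusted p = 0.076 and 0.081) and were called lower with the block. Pmpca, a subunit of the presequence peptidase, was at -0.61 (adjusted p = 0.090 by limma), and Spg7, a protease of the inner membrane known to mature Mrpl32, was at 0.75 and called higher with the block (0.091 without it and 0.045 with it, by limma). Of 8 tested regulators of mitochondrial biogenesis none was called (1 lower with the block, beside the same 11.1% of all tested genes), with a median of -0.19. Yy1 had 23.0, 28.2 and 40.6 FPKM in KD, against 44.2, 57.2 and 46.5 FPKM in PLKO, without overlap (-0.72, limma adjusted p = 0.11, and 0.048 with the block). Myc had 9.88, 12.2 and 30.6 FPKM in KD, against 32.0, 87.5 and 19.1 FPKM in PLKO. It was highest in PLKO 2 and, within KD, in KD 3, and was not called (-1.29, limma adjusted p = 0.18). Gabpa was at 0.34 and Nrf1 at -0.35 (adjusted p = 0.31 and 0.33 by limma).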

How the data were processed

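Poly(A) RNA of 3 KD and 3 PLKO libraries was measured. The authors deposited log2 FPKM for 11866 genes; GRCm38 and FastQC 0.11.7 are named per the submitters' processing notes. The sources used here give no aligner, counter, strand setting or gene filter. The low values hold a prior with a mean of 2 reads. Whole reads were recovered for 100% of the genes (tolerance 0.01 reads, or 1e-07 of the reads), with the GENCODE M21 exonic length for 11190 genes and a scanned length for 676. They are given as depth and enter only as an alternative.

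The test was limma 3.58.1 (R 4.3.3) on the log2 values as deposited, with limma's trend for the variance and without another pseudocount. It ran on 10770 genes whose mean FPKM reached 1, with the group alone in the model. Benjamini-Hochberg adjusted p under 0.05 over all tested genes was called. The prior understates fold changes of genes with few reads. Levels are powers of 2 of the deposited values. The fit was tested on simulated data. Symbols were matched to 1 annotated gene for 99.4% of the table.

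Deviations from the group means correlated at 0.18, 0.29 and 0.50 for libraries numbered 1, 2 and 3, all over the limit of 0.1. Libraries of equal number were therefore treated as pairs in an alternative fit, the replicate block, and not in the main one. This pairing comes from the data. Crossed pairs 1 and 2 correlated at 0.27 and 0.30, also over the limit, so the pairing of libraries 1 and 2 is not fixed by these values. Values with the replicate block are given where they change a call.

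The members, gene lists and tests were chosen with earlier results of these data known. Members were named if called in either fit, among the 8 largest or 8 smallest fold changes, among the 4 highest or 4 lowest levels, or if place or function departs from the symbol (Mrps30, Mrps18a, Mrps36, Mrpl58). From other lists, called genes and up to 3 with the lowest adjusted p were named, as were Sf3b3, Myc and the mitoribosomal proteins with other symbols. mt.Rnr2, Mrm3, Mtrf1l, Tfb2m, Spg7, Nrf1, Mrpl28, Mrpl52, Mrps7, Mrpl27, Mrpl32, Mrpl57, the marker genes and the neighbouring genes were named outside this rule, after their values were seen. Promoter sequences are from RefSeq (GRCm38.p6), and gene coordinates are 1-based.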

Additional observations from a re-analysis of the deposited data

How the results depend on the processing

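Depth varied little between libraries, and both reads and the number of libraries limit the precision. Mrps24 and Mrpl49 kept their direction in every alternative run and lost their calls only when KD 1, KD 2, PLKO 1 or PLKO 2 was left out; the cause was not tested. Leaving out 1 library gave 0 to 1744 called genes (314 with all), 0 to 4 members called higher (0 with all) and 0 to 6 lower (2 with all), medians from -0.33 to -0.11 (all members), -0.31 to -0.08 (Mrpl) and -0.41 to -0.22 (Mrps), and large-minus-small differences from 0.06 to 0.15. Without both libraries numbered 3, 3009 genes, 5 higher and 10 lower members were called, beside 11.9% and 16% of all tested genes. The replicate block called 2080 genes, 2 members higher and 10 lower. It could turn no sign, since each number occurs once in each group and the fold changes therefore stay the same. Array weights, whose estimate did not converge (weight of KD 2 44.7), called 6030 genes, 12 members higher and 25 lower, with a median of -0.09 and 44 members below 0. Gene-by-gene weights, added after seeing the data, called 3599, 6 and 15, with a median of -0.14 and 48 below 0. Sorting subunits by place gave a difference of 0.22. No filter, a minimum of 5 FPKM, log2(FPKM + 1), quantile normalization, median centring and voom on the recovered reads left 286 to 369 genes called, 2 or 3 members lower and none higher, with 54 to 61 members below 0. Signs turned for many members, mostly those with values near 0, and only some are given here. At their farthest, Mrpl20 (-0.50) reached 0.02, Mrpl41 (-0.16) 0.25, Mrpl23 (-0.10) 0.40 and Mrps6 (-0.23) 0.22. In the other direction, Mrpl3 (0.12) reached -0.04 and Mrpl36 (0.03) -0.12. Signs also turned for Mrpl23.ps1 (quantile normalization 0.05, median centring 0.00, array weights 0.82 and 0.48 gene-by-gene, single libraries left out -0.34 to 0.35), Mrps18a (array weights 0.03 and 0.01, left out -0.30 to 0.08), Mrps21 (0.27 and 0.12, without both libraries numbered 3 0.02, left out -0.28 to 0.01), Chchd1 (0.16 and 0.10, left out -0.17 to 0.06) and Mrps36 (left out -0.09 to 0.15), and for Mrpl32 (0.04 without PLKO 2). The cholangiocyte markers turned too: Krt19 (0.47) to -0.29 without both libraries numbered 3, Spp1 (-0.17) to 0.28 and Sox9 (0.01) to -0.10 at their farthest. Of the single-gene values recomputed in full under the alternatives, 719 kept sign and side of the threshold, 148 gained a call, 33 lost one and 19 turned sign.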
